A study of Rattus norvegicus with 10 samples.

Results

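The 8 genes described here encode dual-specificity phosphatases that act on mitogen-activated protein (MAP) kinases: Dusp1, Dusp3, Dusp4, Dusp5, Dusp6, Dusp7, Dusp8 and Dusp14. They were chosen by gene symbol, and each stood on 1 row of a table of 25269 rows, or 23824 once rows sharing a symbol were summed. The values come from hippocampal poly-A RNA of male Sprague-Dawley rats, sequenced as 5 TBI and 5 sham libraries. TBI rats received a traumatic brain injury by fluid percussion, in which a pulse of fluid strikes the brain surface through an opening in the skull, and sham rats had the surgery without it. Both groups were taken 1 week after surgery, following a learning test, so every library, sham included, comes from a rat that had been through surgery and testing. The labels do not say whether every library came from its own rat, and the p-values given here rest on the variation among libraries, which may be technical in part.

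MAP kinases (ERK, JNK and p38) are switched on when an upstream kinase phosphorylates a threonine and a tyrosine in the activation loop, and dual-specificity phosphatases switch them off by removing both phosphates. Several of these phosphatases are themselves transcribed in response to MAP kinase activity, which makes a negative feedback loop. In the hippocampus ERK signalling takes part in synaptic plasticity, and Dusp1, Dusp5 and Dusp6 are widely used as transcripts that respond to neuronal activity or growth factors.

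Promoter sequences are shown for 3 members, Dusp1, Dusp5 and Dusp6. The Dusp1 window holds letters matching the full motif of CREB, the cAMP response element, and the Dusp5 window holds its core and the motif of SRF. Both factors are known for activity-dependent transcription. Dusp6 was the member that followed the neuronal markers most closely. The windows are RefSeq sequences of the GRCr8 build, from 250 bases before to 50 bases after the annotated start, and RefSeq entries of this kind matched 7 of the 8 members. Dusp1 lies at chr10:17184603-17184902 on the plus strand, and the capitals mark a cAMP response element (TGACGTCA) at -124 and an E box (CACGTG) at -107, counted from the annotated start.
Dusp1: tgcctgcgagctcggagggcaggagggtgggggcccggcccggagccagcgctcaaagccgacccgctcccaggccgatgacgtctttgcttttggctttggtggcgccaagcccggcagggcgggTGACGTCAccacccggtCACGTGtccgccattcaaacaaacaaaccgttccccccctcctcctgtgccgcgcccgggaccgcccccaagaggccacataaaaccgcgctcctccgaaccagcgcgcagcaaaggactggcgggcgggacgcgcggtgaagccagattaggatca
Dusp5 lies at chr1:262543524-262543823 on the plus strand, and the capitals mark adjacent CArG boxes, the binding motif of SRF, at -82 and -72, and the core of the cAMP response element, TGACG on the other strand, at -55.
Dusp5: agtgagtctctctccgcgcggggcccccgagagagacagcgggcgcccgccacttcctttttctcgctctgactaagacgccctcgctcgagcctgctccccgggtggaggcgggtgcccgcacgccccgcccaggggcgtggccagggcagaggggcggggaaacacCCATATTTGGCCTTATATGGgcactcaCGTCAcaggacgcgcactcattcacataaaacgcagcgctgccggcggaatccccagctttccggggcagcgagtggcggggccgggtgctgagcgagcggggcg
Dusp6 lies at chr7:35979354-35979653 on the plus strand, and none of these motifs is in its window.
Dusp6: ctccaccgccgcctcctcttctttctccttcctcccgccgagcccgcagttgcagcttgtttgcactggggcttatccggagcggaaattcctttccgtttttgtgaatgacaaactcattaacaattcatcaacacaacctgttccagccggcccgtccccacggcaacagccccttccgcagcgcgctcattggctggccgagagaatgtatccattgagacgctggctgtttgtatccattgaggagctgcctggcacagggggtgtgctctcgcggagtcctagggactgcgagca

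Both strands were searched, and of 33469 rat promoter windows of the same length 1.83% hold the full cAMP response element, 21.2% its core TGACG, 6.42% the E box and 1.64% a CArG box. In Dusp1 the core also lies at -172 and, on both strands, within the full element. The core is not particular to the members shown: it also lies at -193 in Dusp3 and at -77 in a window of Dusp14. A match is a description of these letters and not evidence that a factor binds.

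All 8 phosphatases were measured in every library. Levels are FPKM, fragment numbers divided by transcript length and library total, so they can be compared between genes. Over the 10 libraries the order was Dusp3 (mean 86.9 FPKM), Dusp8 (34.6), Dusp7 (29.8), Dusp6 (21.3), Dusp4 (16.3), Dusp1 (13.0), Dusp5 (7.29) and Dusp14 (4.88). Dusp3 stood apart: its lowest library, at 66.9 FPKM, lay above the highest library of Dusp8, at 43.1 FPKM. For each of the other neighbouring pairs in this order the ranges over libraries overlapped. Within single libraries Dusp4 exceeded Dusp1 in 6 of 10, Dusp7 exceeded Dusp6 in 8 of 10, and each remaining neighbour held its place in at least 9 of 10.

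Setting TBI beside sham asks which of these genes differ 1 week after injury. Of the 8, 7 had a lower mean on the log2 scale after TBI, as did 49.6% of the 16194 genes tested, and Dusp5 was nearly level. The median log2 difference was -0.13 for the 8 genes and 0.0013 for all genes tested. Single libraries move it: without TBI 1 it was -0.048 with 5 of the 8 lower, and without TBI 5 it was -0.25 with all 8 lower. No member had a Benjamini-Hochberg adjusted p under 0.05 in limma's test, and neither did any of the 16194 genes (0, or 0.0%). At an unadjusted p under 0.05 limma called 472 genes (2.91%), among them 1 member, Dusp7. An exact permutation test of every gene had 568 at an unadjusted p under 0.05; its 0 calls after adjustment say nothing, since 2571 genes would have had to reach its smallest possible p of 0.00794. In no member were the TBI and sham libraries without overlap, against 0.482% of all genes.

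**Figure D1:**
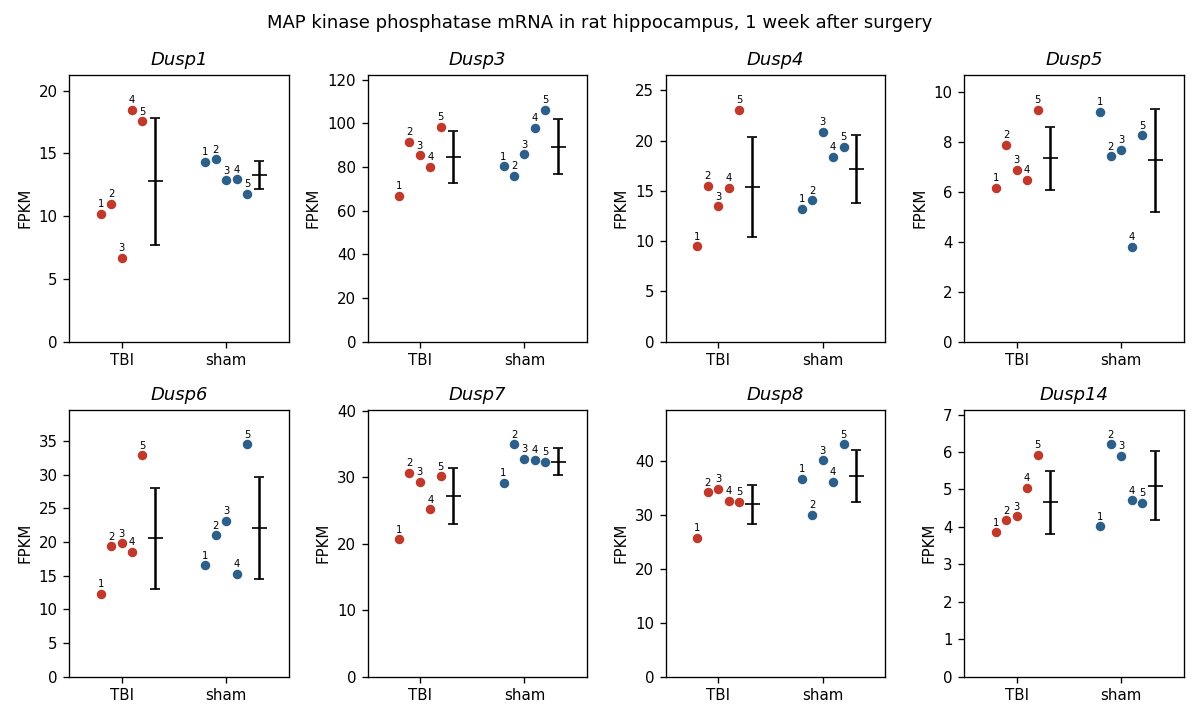
FPKM of each phosphatase in the 5 TBI (red) and 5 sham (blue) libraries, with the library number beside each point and the mean and SD as a black bar. TBI 1 is the lowest of the 10 libraries in 6 of the 8 panels, and the 5 TBI values of Dusp1 lie on either side of the narrow sham range.

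Dusp7 and Dusp6 encode cytoplasmic phosphatases that prefer ERK. Dusp7 was at 20.7, 30.7, 29.3, 25.2 and 30.2 FPKM in TBI libraries 1 to 5, against 29.1, 34.9, 32.7, 32.6 and 32.3 FPKM in sham libraries 1 to 5. All 5 TBI libraries were below the sham mean, and 2 of them, TBI 1 and TBI 4, were below every sham library. The log2 difference was -0.26 (SE 0.11, 95% interval -0.50 to -0.013), with limma's p = 0.0405 and adjusted p = 0.983, and a two-sided exact permutation p of 0.0317. Without TBI 1 it was -0.16, so this 1 library moves the value by over 1.5 times.

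Dusp6 varied more than any other member and showed no separation of the groups. It was at 12.3, 19.3, 19.8, 18.5 and 32.8 FPKM in TBI libraries 1 to 5, against 16.5, 21.0, 23.1, 15.3 and 34.5 FPKM in sham libraries 1 to 5. The libraries numbered 5 were the highest in both groups, and the highest and lowest of the 10 libraries differed 2.81-fold. The log2 difference was -0.11 (SE 0.26, 95% interval -0.69 to 0.47; limma's adjusted p = 0.983). It was 0.054 without TBI 1 and 0.064 without sham 5.

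Dusp1, Dusp4 and Dusp5 encode inducible phosphatases of the nucleus. Dusp1, an immediate early gene whose product acts on p38, JNK and ERK, was at 10.2, 11.0, 6.66, 18.5 and 17.5 FPKM in TBI libraries 1 to 5, against 14.3, 14.5, 12.9, 12.9 and 11.8 FPKM in sham libraries 1 to 5. Each TBI library lay outside the sham range, TBI 1, TBI 2 and TBI 3 below it and TBI 4 and TBI 5 above it, a pattern with TBI libraries on both sides that 1.24% of all genes tested share. The means were close, at 12.8 ± 5.07 FPKM after TBI and 13.3 ± 1.14 FPKM in sham (SD, n = 5 each), while the coefficient of variation was 39.7% after TBI and 8.62% in sham. The difference in spread was not tested. The log2 difference was -0.14 (SE 0.24, 95% interval -0.66 to 0.38; limma's adjusted p = 0.983), and it was 0.058 without TBI 3.

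Dusp4, whose product acts on ERK and JNK, was at 9.48, 15.5, 13.5, 15.3 and 23.1 FPKM in TBI libraries 1 to 5, against 13.2, 14.1, 20.9, 18.4 and 19.4 FPKM in sham libraries 1 to 5. TBI 1 was the lowest and TBI 5 the highest of all 10 libraries, so the TBI values enclosed the sham values. The log2 difference was -0.19 (SE 0.21, 95% interval -0.66 to 0.28; limma's adjusted p = 0.983). Without TBI 1 it was -0.036.

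Dusp5, which is specific to ERK, was at 6.16, 7.86, 6.87, 6.48 and 9.28 FPKM in TBI libraries 1 to 5, against 9.18, 7.41, 7.66, 3.79 and 8.25 FPKM in sham libraries 1 to 5. The group means were 7.33 ± 1.26 FPKM after TBI and 7.26 ± 2.05 FPKM in sham (SD, n = 5 each). Sham 4 was far below the other 9 libraries, and the log2 difference of 0.051 (SE 0.21; limma's adjusted p = 0.991) was -0.15 without it.

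Dusp8, which prefers JNK and p38 over ERK, was at 25.7, 34.2, 34.9, 32.6 and 32.4 FPKM in TBI libraries 1 to 5, against 36.7, 30.1, 40.1, 36.2 and 43.1 FPKM in sham libraries 1 to 5. All 5 TBI libraries were below the sham mean, but sham 2 lay below all TBI libraries other than TBI 1. The log2 difference was -0.21 (SE 0.11, 95% interval -0.46 to 0.034), with limma's p = 0.0839 and adjusted p = 0.983 and a two-sided exact permutation p of 0.119. It was -0.14 without TBI 1, -0.16 without sham 5 and -0.29 without sham 2. The values without TBI 1 and without sham 2 were the ends of the range when each library was left out in turn.

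Dusp3 and Dusp14 encode small atypical family members that lack the kinase-binding domain of the larger ones. Dusp3 was at 66.9, 91.5, 85.4, 80.2 and 98.3 FPKM in TBI libraries 1 to 5, against 80.4, 76.0, 85.8, 97.8 and 106 FPKM in sham libraries 1 to 5. Apart from TBI 1 the TBI values lay inside the sham range, and the log2 difference was -0.080 (SE 0.12, 95% interval -0.35 to 0.19; limma's adjusted p = 0.983). Without TBI 1 it was 0.00049.

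Dusp14 was at 3.85, 4.18, 4.28, 5.05 and 5.93 FPKM in TBI libraries 1 to 5, against 4.01, 6.20, 5.90, 4.71 and 4.65 FPKM in sham libraries 1 to 5. The groups overlapped over nearly their whole range, with TBI 1 alone below every sham library. The log2 difference was -0.12 (SE 0.14, 95% interval -0.43 to 0.20; limma's adjusted p = 0.983). It was -0.047 without sham 2, -0.059 without TBI 1 and -0.20 without TBI 5.

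**Figure D2:**
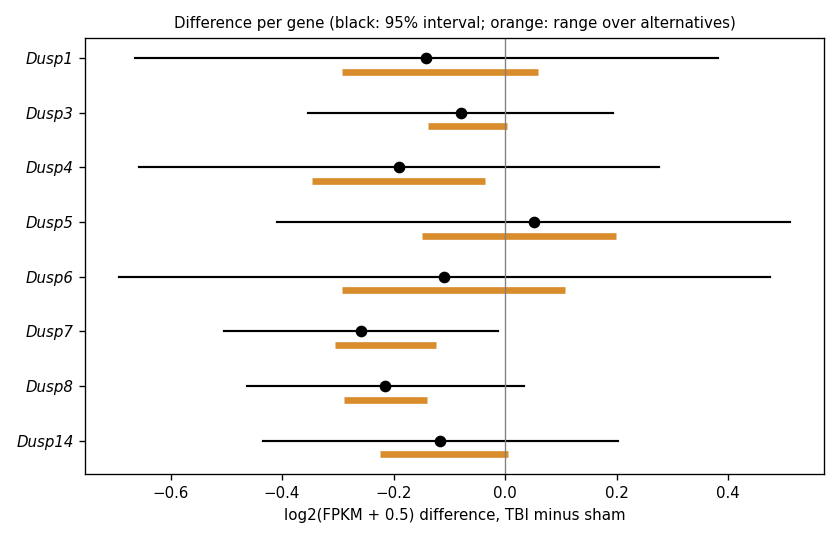
Log2 difference, TBI minus sham, of each phosphatase on the log2(FPKM + 0.5) scale, with limma's 95% interval in black and the range over 26 alternative settings in orange. The interval of Dusp7 ends at -0.013, the other 7 intervals include 0, and the orange bars of Dusp4, Dusp7 and Dusp8 stay below 0.

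Some libraries were the lowest or highest for more than 1 of the phosphatases. TBI 1 was the lowest of the 10 libraries in 6 of the 8 phosphatases, all but Dusp1 and Dusp5, and in 28.6% of all genes tested. Sham 5 was the highest in Dusp3, Dusp6 and Dusp8, TBI 5 in Dusp4 and Dusp5, and sham 2 in Dusp7 and Dusp14. The median deviation of the 8 genes from their means over all libraries was -0.38 log2 units in TBI 1 and ran from -0.087 to 0.32 in the other 9.

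Markers of the tissue and of its surroundings varied between libraries. The 8 neuronal markers, all detected, summed to 1561 to 3284 FPKM in TBI libraries and 2341 to 3708 FPKM in sham libraries, with TBI 1 lowest and sham 5 highest. Glial markers were all detected too, 6 of 6, at a summed 3090 to 5435 FPKM after TBI and 3436 to 5747 FPKM in sham. Of 12 choroid plexus markers 11 were matched and detected, at a summed 148 to 34325 FPKM after TBI and 103 to 32780 FPKM in sham. The median sums were 12684 FPKM after TBI and 513 FPKM in sham, and the 10 tested markers all had a higher mean after TBI, none at an unadjusted p under 0.05. With the choroid plexus score as a covariate the log2 difference was -0.0020 for Dusp3, -0.14 for Dusp8, -0.22 for Dusp14 and -0.23 for Dusp7. Of 12 meninges and matrix markers 11 were above 0 in some library and Col1a2 was listed at 0 throughout, and their sum was 76.6 to 861 FPKM after TBI and 71.5 to 642 FPKM in sham. TBI 1 had the highest choroid plexus and matrix sums of all libraries. Of 5 endothelial markers 4 were matched, at a summed 69.8 to 85.0 FPKM after TBI and 87.1 to 123 FPKM in sham, so these sums did not overlap between the groups. Cldn5 made up the largest part of the sum and was the 1 gene of the 4 without overlap, against 0.482% of all genes tested. Pecam1 was nearly level, at a log2 difference of -0.038. All 4 had a lower mean after TBI, and 2, Cldn5 and Esam, were at an unadjusted limma p under 0.05; Cldn5, a tight junction protein, was at 49.2 ± 3.76 FPKM after TBI and 68.3 ± 8.49 FPKM in sham (SD, n = 5 each; limma's adjusted p = 0.983). All 10 markers of neighbouring brain regions were detected, at a summed 72.0 to 109 FPKM after TBI and 60.4 to 121 FPKM in sham. In bulk tissue fewer cells of a type and less RNA per cell cannot be told apart, and the part of tissue content in the values of the phosphatases was not tested beyond the alternatives given here.

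Dusp6 followed the neuronal markers across libraries. With each group's mean subtracted, its Pearson correlation with the neuron score (the mean log2 deviation of the 8 markers) was 0.90 and Spearman's rho 0.94 over 10 libraries, and the Pearson value was 0.91 without TBI 1 and TBI 5, the libraries farthest out. Among genes outside the marker list 2.17% had a correlation at least as high. This pair had the highest correlation of any member with any list, and the share makes no allowance for that. Dusp7 (0.81), Dusp4 (0.81), Dusp3 (0.80) and Dusp8 (0.76) had correlations with the score that were 0.41, 0.55, 0.57 and 0.65 without those libraries. Dusp14 (0.48), Dusp5 (0.41) and Dusp1 (0.017) followed it less. Other marker lists gave values of like size: with the glial score the correlation was 0.79 for Dusp8, 0.78 for Dusp3, 0.69 for Dusp6 and 0.57 for Dusp4, and the last was 0.96 without sham 5 and TBI 3, the libraries farthest out in that score. Dusp8 was at -0.82 with the meninges and matrix score and -0.84 with the score of neighbouring regions, both larger in size than its value with the neuron score. The points share tissue content and scaling, so these are descriptions. With the neuron score as a covariate the log2 difference was -0.18 for Dusp7 and -0.14 for Dusp8, and it was -0.036 for Dusp4, 0.0030 for Dusp3 and 0.11 for Dusp6.

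**Figure D3:**
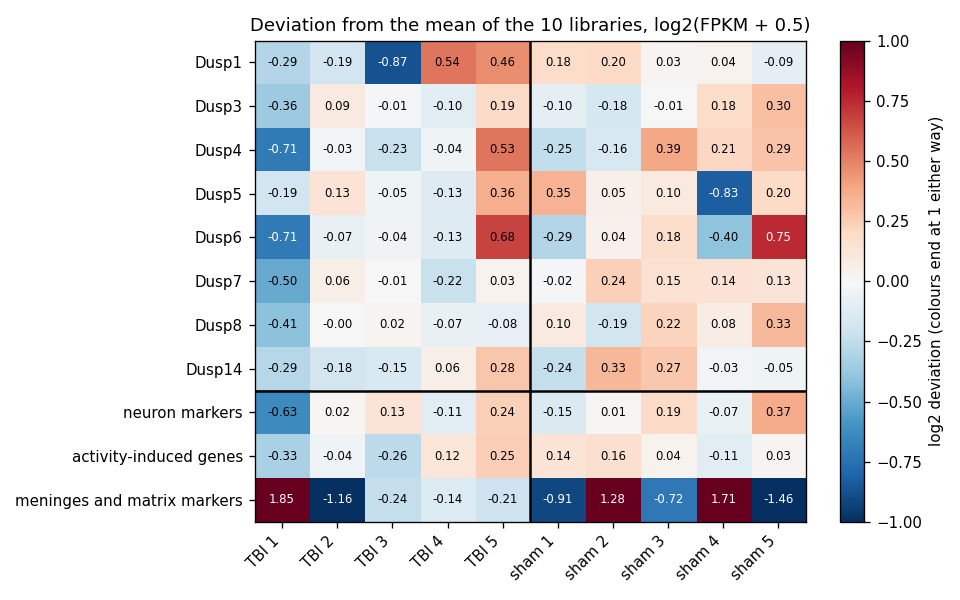
Deviation of each phosphatase (upper rows) and of 3 gene lists (lower rows) from the mean of the 10 libraries, in log2 units, with TBI libraries on the left and sham libraries on the right. The TBI 1 column is negative for every phosphatase and for the neuron score (-0.63), and positive for the meninges and matrix score.

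Dusp1 followed the activity-induced genes across libraries. The list held 29 genes such as Fos, Egr1 and Arc, none of them a phosphatase described here, and 28 were tested. With group means subtracted, Dusp1 had a Pearson correlation of 0.83 and a Spearman's rho of 0.89 with the score of this list over 10 libraries, and a Pearson correlation of 0.85 without TBI 1 and TBI 5. Among genes outside the list 0.303% had a correlation at least as high as that of Dusp1. Such a share was computed only for this pair and for Dusp6 with the neuron score. These had the highest positive correlations of any member with any list, and the share makes no allowance for that. With the same score Dusp14 was at 0.63, Dusp5 at 0.57, Dusp6 at 0.57 and Dusp4 at 0.54. Without TBI 1 and TBI 5 these were 0.32, 0.47, 0.023 and -0.24. Dusp7 (0.39), Dusp3 (0.25) and Dusp8 (0.13) followed it less. The score was -0.33, -0.043, -0.26, 0.12 and 0.25 in TBI libraries 1 to 5, against 0.14, 0.16, 0.036, -0.11 and 0.031 in sham libraries 1 to 5. The TBI libraries with Dusp1 above the sham range, TBI 4 and TBI 5, were those with a score above 0.

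**Figure D4:**
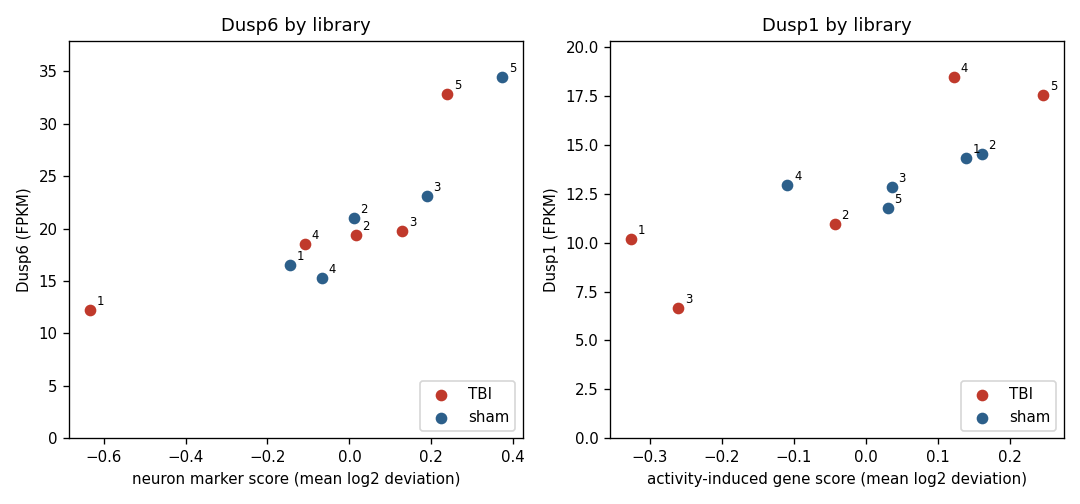
Left, Dusp6 in FPKM against the neuron marker score, and right, Dusp1 in FPKM against the activity-induced gene score, with 1 point per library, TBI in red and sham in blue. Dusp6 runs from 12.3 FPKM in TBI 1, at a score of -0.63, to 34.5 FPKM in sham 5, at a score of 0.37.

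The phosphatases varied together to different degrees. Of the 28 pairs among the 8 genes, 14 had a Pearson correlation of at least 0.5 over the 10 libraries with group means subtracted, and 6 did without TBI 1. The median over the 28 pairs was 0.48, and 0.28 without TBI 1. The share of all gene pairs that reach 0.5 was not computed, so these counts do not set the phosphatases apart from other genes. The closest pair was Dusp3 and Dusp4 (0.82, and 0.70 without TBI 1), followed by Dusp4 and Dusp6 (0.77, and 0.66 without TBI 1) and by Dusp3 and Dusp8 (0.77, and 0.62 without TBI 1). The correlations of Dusp7 rested largely on TBI 1: without it they were 0.28 with Dusp3, 0.28 with Dusp4, 0.34 with Dusp6 and -0.18 with Dusp8. Dusp8 was likewise at 0.35 with Dusp6 and 0.37 with Dusp4 without TBI 1. Dusp1 and Dusp5 had a correlation of 0.18 with each other. With all 10 libraries the 3 pairs below 0 were Dusp1 with Dusp8 (-0.15), Dusp8 with Dusp14 (-0.048) and Dusp1 with Dusp7 (-0.019). Without TBI 1 these pairs were at -0.38, -0.43 and -0.34, and further pairs fell below 0, such as Dusp3 with Dusp14 (-0.13). Within the 5 sham libraries Dusp1 was at -0.93 with Dusp3, -0.87 with Dusp4 and -0.84 with Dusp8. These were the lowest of the 28 pairs in sham, where Dusp1 ran only from 11.8 to 14.5 FPKM. Within the 5 TBI libraries the same pairs were at 0.25, 0.58 and -0.033. Each value rests on 5 points, and the difference between the groups was not tested.

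**Figure D5:**
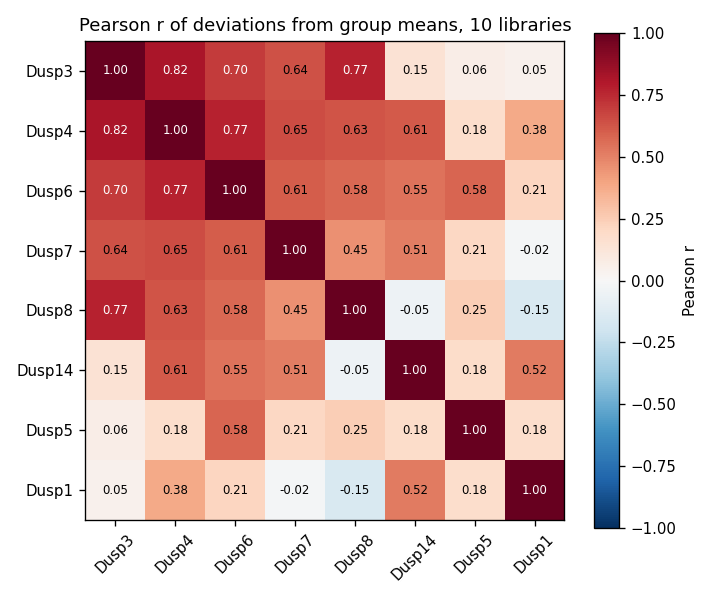
Pearson correlation between each pair of phosphatases over 10 libraries, computed on log2(FPKM + 0.5) after subtracting each group's mean. Dusp3, Dusp4, Dusp6, Dusp7 and Dusp8 have pairwise values of 0.45 to 0.82 with all 10 libraries, but without TBI 1 those of Dusp7 with the other 4 run from -0.18 to 0.34.

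By the same measure the named genes most like each member were as follows, as a description of likeness alone. The values were picked as the highest of very many correlations over 10 libraries, and they were not computed without TBI 1. Ift74 (0.93) and Psmb1 (0.92) were closest to Dusp1, Serbp1 (0.97) and Dlg3 (0.97) to Dusp4, and Camlg (0.95) and Hcrt (0.92) to Dusp5. For Dusp6 they were Actr3 (0.97) and Snn (0.95), for Dusp7 Rtn4r (0.98) and Bcas3 (0.98), and for Dusp8 Tmem170b (0.99) and St8sia1 (0.98). For Dusp3 they were the shared row of Rbbp5 and Tmem81 (0.96) and Zbtb38 (0.95), and Rilpl2 (0.92) was among those for Dusp14. Rtn4r, the Nogo receptor, was at 41.8 ± 13.1 FPKM after TBI and 53.0 ± 7.79 FPKM in sham (SD, n = 5 each), a log2 difference of -0.39.

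The rest of the pathway gave no call after adjustment in either direction. The counts of lower genes in the lists below stand beside 49.6% of all genes tested. They were not recomputed without TBI 1. Of 21 other dual-specificity and MAP kinase phosphatases 19 were matched and 15 tested, with 8 higher and 7 lower after TBI and a median log2 difference of 0.0064. Dusp15, an atypical member, was at 11.3 ± 1.54 FPKM after TBI and 8.85 ± 1.08 FPKM in sham (SD, n = 5 each), with a log2 difference of 0.34 (SE 0.11; limma's adjusted p = 0.983). It was the 1 gene of that list at an unadjusted p under 0.05. Dusp18 was at 10.3 ± 0.295 FPKM after TBI and 9.56 ± 0.958 FPKM in sham (SD, n = 5 each).

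Of 35 genes of the MAP kinase cascade itself 30 were tested, 9 higher and 21 lower, with a median log2 difference of -0.056 and none at an unadjusted p under 0.05. Their mean log2 deviation was -0.18, 0.022, 0.11, -0.0017 and 0.0022 in TBI libraries 1 to 5. In sham libraries it was -0.023 to 0.055, so TBI 1 alone lay below the sham range. The closest were Map3k4, a kinase upstream of p38 and JNK, at 8.15 ± 0.551 FPKM after TBI and 9.25 ± 1.07 FPKM in sham, and Mapk14, p38 alpha, at 24.6 ± 2.79 FPKM after TBI and 27.7 ± 2.60 FPKM in sham (SD, n = 5 each). All 14 feedback inhibitors of Ras and ERK were tested, 4 higher and 10 lower, with a median log2 difference of -0.12. Their mean log2 deviation was -0.12 in TBI 1, -0.078 to 0.048 in the other TBI libraries and -0.082 to 0.16 in sham libraries. Spred2 was at 26.7 ± 4.16 FPKM after TBI and 30.6 ± 2.44 FPKM in sham, and Spred1 at 19.7 ± 1.38 FPKM after TBI and 22.2 ± 3.11 FPKM in sham (SD, n = 5 each).

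Of the 28 activity-induced genes 7 were higher and 21 lower, with a median log2 difference of -0.092, and 2 were at an unadjusted p under 0.05, both lower. Ier5 was at 19.5 ± 4.81 FPKM after TBI and 27.9 ± 6.72 FPKM in sham, and the nuclear receptor Nr4a2 at 17.5 ± 5.52 FPKM after TBI and 23.7 ± 2.38 FPKM in sham (SD, n = 5 each; limma's adjusted p = 0.983 for both). Of 16 tested ERK targets and effectors 6 were higher and 10 lower, with a median log2 difference of -0.058. The ERK-activated kinase Rps6ka1 was at 4.95 ± 0.469 FPKM after TBI and 4.04 ± 0.379 FPKM in sham, and Mknk2 at 16.0 ± 1.59 FPKM after TBI and 18.6 ± 1.62 FPKM in sham (SD, n = 5 each; limma's adjusted p = 0.983 for both), and these were the 2 genes of that list at an unadjusted p under 0.05.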

How the data were processed

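Per the labels' protocols, poly-A RNA of the hippocampus was sequenced on an Illumina instrument, as 5 TBI and 5 sham libraries. The deposited values are FPKM, made by the authors. The submitters' processing notes name the rn5 build with Cufflinks, Cuffdiff, TopHat, Bowtie, TopHat2 and Bowtie2; how each was used, its version and the annotation are not given in the sources. The columns summed to 523239 to 629660 FPKM with upper quartiles of 13.1 to 13.5. The fragment depth behind a value is unknown, and precision rests on the variation among libraries, without counting intervals. Strand use in counting is not given, so reads of overlapping or antisense genes cannot be told apart. All values of the 8 genes carry the status OK.

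Rows sharing a symbol were summed, and genes with a mean of at least 0.5 FPKM were tested with limma 3.58.1 in R 4.3.3 (mean trend, two-sided) on log2(FPKM + 0.5), a scale that understates changes of low genes. Adjustment was Benjamini-Hochberg over all 16194 genes at a threshold of 0.05. The procedure was tested on simulated data. Exact permutation tests ran over all 252 assignments, with a smallest possible p of 0.00794. The members and lists were chosen with earlier results of these data known. The genes named beyond the members are the 2 of each pathway list with the smallest p and, for each member, the 2 named genes of mean at least 1 FPKM with the highest correlation. A gene so chosen is not reported here. Unmatched list symbols are not analysed here. Alternatives covered the pseudocount, filter, scaling, variance trend, weights, block, covariates, summing, the test and libraries left out. The neuron score as covariate and the fit without sham 2, sham 4 and TBI 1 were added after seeing the data.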

Additional observations from a re-analysis of the deposited data

Results flagged for a closer look

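Dusp8 in TBI 1, at 25.7 FPKM, lay far from the other 4 TBI libraries, which were at 32.4 to 34.9 FPKM; its gap to the nearest was 0.735 of the group's range, against a critical value of 0.71. It was the 1 such value among 16 groups of 5 libraries, and chance alone flags about 1 group in 20. TBI 1 also had the lowest neuronal marker sum (1561 FPKM) and the highest meninges and matrix sum (861 FPKM), and their part in this value was not tested.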

How the results depend on the processing

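No member passed adjustment in any of the 26 alternatives, and Dusp4, Dusp7 and Dusp8 stayed lower after TBI in each. The count of genes past adjustment was 0 and ran from 0 to 2 when each library was left out in turn; the 2, without sham 4, were Plac9 and a row without a gene name, named here after their values were seen. It was also 2 without sham 2, sham 4 and TBI 1 together, Plac9 and another row without a gene name. Leaving out each library in turn gave log2 differences of -0.29 to 0.058 for Dusp1, -0.14 to 0.00049 for Dusp3, -0.15 to 0.14 for Dusp5, -0.29 to 0.064 for Dusp6, -0.31 to -0.16 for Dusp7 and -0.20 to -0.047 for Dusp14. For Dusp4 the range was -0.35 to -0.036 and for Dusp8 -0.29 to -0.14. Dusp4 was also at -0.036 with the neuron score as a covariate. Signs also turned for Dusp1 with array weights (0.044), for Dusp3 (0.0030) and Dusp6 (0.11) with the neuron score, and for Dusp5 (-0.13) and Dusp14 (0.0044) without sham 2, sham 4 and TBI 1. Dusp7 was at -0.12 in that fit, and its limma p was under 0.05 in 15 of the 25 alternatives tested by limma. For Dusp8 this was 4 of 25. Several alternatives, such as those of the filter and the variance trend, leave the log2 difference unchanged, so these counts do not measure robustness. With single libraries left out, Dusp7 stayed under 0.05 without TBI 2, TBI 3, TBI 5 or sham 1. It did not without TBI 1, TBI 4, sham 2, sham 3, sham 4 or sham 5. Dusp8 was under 0.05 only without sham 2. The causes were not tested. Libraries of the same number in the titles did not deviate together (correlations of -0.38 to 0.31 over 5 pairs), and with the replicate block 0 genes passed, the log2 difference of Dusp7 was -0.26 (limma p = 0.0171, adjusted p = 0.963) and no member changed its call. Unknown depth leaves counting error of the lower members unmeasured.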
